A study of Mus musculus with 4 samples.

Results

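The nuclear respiratory chain subunits described here are 43 mouse genes that encode protein parts of complexes I, III and IV and the electron carrier cytochrome c. They were chosen by name from the known make-up of these complexes and not from measured values. Complex I contributes 26 genes, complex III 7, cytochrome c 1 (Cycs) and complex IV 9. A probe could be named for 42 of the 43, among 22911 genes with a named probe, and Cox5b had none.

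RNA came from RAW264.7, a mouse macrophage-like cell line, in a series that asks what RUVBL2 does in the proinflammatory response to lipopolysaccharide (LPS). RUVBL2 is an ATPase that acts with RUVBL1 in chromatin remodelling and chaperone complexes, and LPS is a bacterial wall component sensed by Toll-like receptor 4. The 4 groups were Ruvbl2 siRNA with LPS, control siRNA with LPS, Ruvbl2 siRNA with DMSO and control siRNA with DMSO, where DMSO is the solvent control. All groups came from the same line and were transfected, so none shows untouched cells. The target siRNA is a SMARTpool, labelled siRvbl2 with a letter missing and read as Ruvbl2 because the series names that gene. The cells were taken 2 days after transfection, and the labels name electroporation or a lipid reagent without saying which was used. The sources used here give neither the dose nor the duration of LPS. There was 1 array per group, so no value below has a replicate check, no test was run and every difference is between single RNA samples.

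The respiratory chain sits in the inner mitochondrial membrane. Complex I takes electrons from NADH and passes them to ubiquinone, complex III passes them on to cytochrome c, and complex IV, cytochrome c oxidase, gives them to oxygen. The proton gradient built on the way drives ATP synthase. Each of these complexes mixes subunits encoded in the nucleus with a few encoded in mitochondrial DNA, and nuclear respiratory factor 1 (NRF1), the ETS factor GABP and YY1 are known regulators of many of the nuclear genes. Mouse macrophages exposed to LPS are known for a shift from respiration towards glycolysis, and electron flow through complex I is known as a source of reactive oxygen in such cells.

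A level below is the log2 of the array's processed signal minus that array's 75th percentile over all RNA probes, so 0 is the 75th percentile and a difference of 1 is 2-fold. Levels are compared between arrays for 1 gene and never between genes, since probes differ in brightness for the same amount of RNA. Probes printed 10 times on each array gave a technical SD of 0.06 for a log2 difference at levels above 3, where all 42 genes lie. A difference is called here beyond technical error when it exceeds 2 such SDs, or 0.13. This covers spot-to-spot error within an array and not the spread between cultures. In bulk RNA, fewer cells of a kind and less RNA per cell cannot be told apart.

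The 4 arrays lay on 1 slide, and between 54.1% and 55.0% of their spots were well above background. Slide position went with the siRNA: the Ruvbl2 siRNA arrays were both in row 2 and the control siRNA arrays both in row 1, so the effect of the row and that of the siRNA cannot be told apart. All 10 macrophage markers were well above background on all 4 arrays. Of the T cell, fibroblast and epithelial marker lists, 3 of 5, 1 of 5 and 0 of 4 genes were in that order, and Cd3g, Cd2, Col1a1, Col3a1, Pdgfra, Dcn, Epcam, Cdh1 and Krt19 were so on no array. Ruvbl2 itself had a level of 4.51 with its siRNA and 4.92 with control siRNA under LPS, a log2 difference of -0.40. In DMSO it had 4.67 with its siRNA and 5.01 with control siRNA, a difference of -0.34. Both differences exceed technical error.

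The upstream DNA of the genes is shown for those the results turn on and for those that hold an NRF1 motif before their start. RefSeq (GRCm38.p6) gives a window from 250 bases before to 50 after the start for 34 of the 43 genes, Uqcrq not among them. These windows were searched on both strands for GCGCATGC (NRF1), CCGGAAG (ETS, as for GABP) and AAGATGG (YY1). The lines give bases just before the start, 5′ to 3′ in the direction of the gene, with motif matches in capitals. All 6 genes shown lie on the minus strand. The first 2 had the largest log2 difference of their complexes in the 4 comparisons below and hold none of the 3 motifs in the bases printed. The searched window of Cox8a does hold an ETS match, which does not lie wholly within those bases.
Ndufa10 (chr1:92473759-92473878): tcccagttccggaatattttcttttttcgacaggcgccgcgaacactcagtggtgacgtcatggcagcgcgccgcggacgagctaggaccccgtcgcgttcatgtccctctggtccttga
Cox8a (chr19:7217617-7217736): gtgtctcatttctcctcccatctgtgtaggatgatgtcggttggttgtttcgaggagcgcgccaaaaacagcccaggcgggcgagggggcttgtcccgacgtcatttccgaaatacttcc
Cycs (chr6:50566570-50566689): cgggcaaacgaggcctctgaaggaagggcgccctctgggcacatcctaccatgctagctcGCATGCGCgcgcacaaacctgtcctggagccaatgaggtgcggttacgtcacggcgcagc
Ndufa6 (chr15:82354292-82354411): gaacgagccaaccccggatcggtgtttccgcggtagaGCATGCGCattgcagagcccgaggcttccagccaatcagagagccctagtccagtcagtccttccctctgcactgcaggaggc
Ndufa8 (chr2:36049339-36049458): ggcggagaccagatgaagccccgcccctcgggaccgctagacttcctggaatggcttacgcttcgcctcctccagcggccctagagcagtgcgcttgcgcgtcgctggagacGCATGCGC
Cox6a1 (chr5:115348959-115349208): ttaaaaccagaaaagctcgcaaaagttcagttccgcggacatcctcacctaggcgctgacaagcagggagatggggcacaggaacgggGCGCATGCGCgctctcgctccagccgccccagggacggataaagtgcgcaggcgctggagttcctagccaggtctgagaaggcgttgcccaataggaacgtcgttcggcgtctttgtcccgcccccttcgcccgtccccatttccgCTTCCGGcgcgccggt

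In Cycs, Ndufa6 and Ndufa8 the capitals are the NRF1 motif read from the other strand. In Cox6a1 the first run of capitals holds 2 overlapping NRF1 motifs, one on each strand, and the second is an ETS motif. The NRF1 letters were in the window of 5 of 34 genes (14.7%: Ndufa6, Ndufa8, Uqcrc1, Cycs and Cox6a1), against 3.05% of all 27025 windows and 5.80% of the 9995 windows of genes well above background. The YY1 letters were in 7 windows (20.6%), against 7.28% and 8.55%, and the ETS letters in 6 (17.6%), against 9.93% and 20.1%. The NRF1 motif genes did not share a direction: with control siRNA the LPS difference was -0.23 for Ndufa6 and -0.01 for Cox6a1, but 0.10 for Ndufa8, 0.13 for Uqcrc1 and 0.27 for Cycs. A match describes letters and not binding.

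The 42 genes varied little. All of them were well above background on all 4 arrays, with levels between 3.37 and 9.27. A gene's range over the 4 arrays was between 0.12 and 0.49, with a median of 0.29, against a median of 0.34 over the 4141 genes of mean level 3 or more, a floor that all 42 exceed. The largest difference between any 2 arrays compared was 1.40-fold (Ndufa10). No gene of the 42 passed 2-fold or 1.5-fold in any comparison. Over all genes compared, LPS against DMSO passed 2-fold higher in 3.18% and lower in 1.65% with Ruvbl2 siRNA, and in 4.74% and 2.06% with control siRNA. Ruvbl2 siRNA against control siRNA passed it in 0.508% and 1.23% under LPS, and in 0.424% and 0.44% in DMSO. The shares past 1.5-fold were 7.72% higher and 7.2% lower for LPS with Ruvbl2 siRNA, 10.2% and 7.81% for LPS with control siRNA, 2.91% and 4.6% for the siRNA under LPS, and 2.29% and 2.07% for the siRNA in DMSO. Among the genes of mean level 3 or more these shares were smaller: 4.64% higher and 3.45% lower for LPS with Ruvbl2 siRNA, 6.76% and 4.47% for LPS with control siRNA, 1.21% and 1.01% for the siRNA under LPS, and 0.507% and 0.676% for the siRNA in DMSO. The count of 0 is read against the summed shares of these genes, which are small for the siRNA and larger for LPS.

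**Figure D1:**
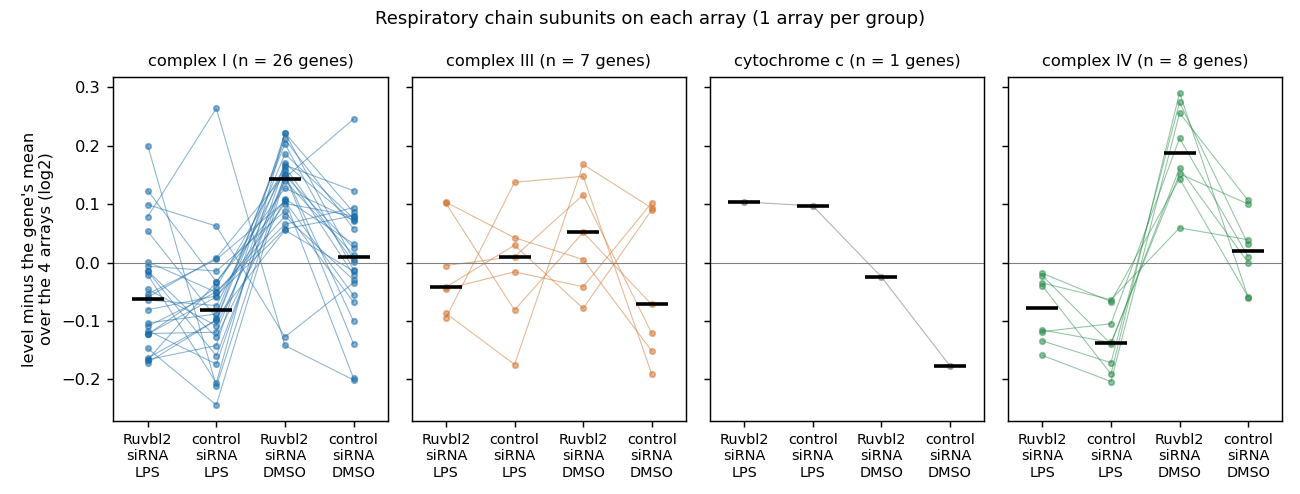
Level of each subunit gene on each array minus that gene's mean over the 4 arrays (log2, vertical axis), by complex, with 1 line per gene and a black bar at the median. In complexes I and IV most lines peak on the Ruvbl2 siRNA DMSO array, where 30 of the 42 genes were highest, while the complex III lines cross.

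After LPS, most subunit genes of complexes I and IV were somewhat lower relative to the 75th percentile of the arrays. With Ruvbl2 siRNA this direction turns under the spike-in scaling given further on. There 38 of 42 genes were above 0, 24 of 26 in complex I and 6 of 8 in complex IV. So were 83.3% of all genes compared and 90.1% of those of mean level 3 or more. With control siRNA under that scaling 26 of 42 were below 0, 17 of 26 in complex I and 7 of 8 in complex IV. In that comparison 57.7% of all genes and 64.0% of those of mean level 3 or more were above 0. Relative to the 75th percentile, with Ruvbl2 siRNA 34 of 42 genes were below their DMSO level, with a median log2 difference of -0.19, and with control siRNA 32 of 42, with a median of -0.11. Over all genes compared 53.8% and 50% were below 0, with medians of -0.03 and 0.00, and over genes of mean level 3 or more 50.8% and 45.4%, with medians of 0.00 and 0.03. Beyond technical error, 27 genes were lower and 3 higher with Ruvbl2 siRNA, where 32.7% and 32.2% of genes of mean level 3 or more were. With control siRNA 18 were lower and 6 higher, against 28.9% and 37.5%. For 24 of the 42 genes both LPS levels lay below both DMSO levels, against 31.2% of all genes well above background on the 4 arrays and 27.3% of those of mean level 3 or more. For 4 genes (Ndufa8, Ndufs4, Uqcrb and Cycs) both LPS levels lay above both DMSO levels, against 28.7% and 33.1%. These separations, and those named for single genes below, are on the 75th percentile scale. With spike-in scaling 4 of 42 genes were below 0 for LPS with Ruvbl2 siRNA. At most those 4 could then have both LPS levels below both DMSO levels. The LPS comparisons with the 2 siRNAs use separate arrays, whereas each siRNA comparison shares an array with each LPS comparison.

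Complex I is the NADH end of the chain, and 17 of its 26 genes had both LPS levels below both DMSO levels. Its 6 core subunits, which carry the flavin and iron-sulfur centres or form the path to ubiquinone, were below 0 in all 6 cases with each siRNA, with a median LPS difference of -0.20 with Ruvbl2 siRNA and -0.13 with control siRNA. Ndufs8, an iron-sulfur subunit near the ubiquinone site, had levels of 6.64 (Ruvbl2 siRNA) and 6.72 (control siRNA) with LPS, against 7.03 and 6.87 in DMSO. Ndufs1, the largest iron-sulfur subunit, had 5.36 and 5.49 with LPS, against 5.65 and 5.60 in DMSO in the same order. Both genes were lower on each LPS array than on either DMSO array, with differences of -0.38 and -0.29 with Ruvbl2 siRNA and of -0.16 and -0.11 with control siRNA. The other core genes, Ndufv1 (the NADH-binding flavoprotein), Ndufv2, Ndufs3 and Ndufs7, differed by between -0.22 and 0.00 with Ruvbl2 siRNA and between -0.14 and -0.08 with control siRNA.

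Of the 7 NDUFB genes, which encode accessory parts of the membrane arm, 7 were below 0 with Ruvbl2 siRNA and 6 with control siRNA, with medians of -0.22 and -0.17. Ndufb2 had levels of 5.21 (Ruvbl2 siRNA) and 5.15 (control siRNA) with LPS, against 5.49 and 5.45 in DMSO. Ndufb7, a subunit on the intermembrane side, had 6.72 and 6.53 with LPS, against 6.96 and 6.74 in DMSO. Neither gene overlapped between treatments, though the Ndufb7 level with Ruvbl2 siRNA and LPS lay just under that with control siRNA and DMSO. Ndufb9 was the exception with control siRNA, at 0.05.

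Within complex I the accessory NDUFA and NDUFS genes were the most mixed, with 9 of 13 below 0 with Ruvbl2 siRNA and 8 of 13 with control siRNA. Ndufa10, an accessory subunit of the membrane arm, had levels of 4.78 (Ruvbl2 siRNA) and 4.68 (control siRNA) with LPS, against 5.07 and 5.17 in DMSO. With control siRNA its LPS level was 71.2% of that in DMSO, a log2 difference of -0.49, and its dimmer second probe gave -0.54. With Ruvbl2 siRNA the difference was -0.29, where the second probe gave -0.10. Ndufa6, which binds the mitochondrial acyl carrier protein in complex I, had 6.14 and 6.17 with LPS, against 6.53 and 6.39 in DMSO. Both genes were lower on each LPS array than on either DMSO array. Ndufs4, an accessory subunit of the NADH-oxidising arm whose loss in mice models Leigh syndrome, went the other way. Its levels were 5.04 and 5.22 with LPS, against 4.82 and 4.76 in DMSO, a difference of 0.22 with Ruvbl2 siRNA and 0.47 with control siRNA. Ndufa8, a subunit facing the intermembrane space, was also higher, at 3.60 and 3.56 with LPS against 3.37 and 3.46 in DMSO, though its difference with control siRNA, 0.10, was within technical error.

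Complex III showed no common direction with LPS. Its 7 genes had a median difference of 0.00 with Ruvbl2 siRNA and -0.01 with control siRNA, with 4 of 7 below 0 in each, and 1 gene, Uqcrh, had both LPS levels below both DMSO levels. Uqcrh, the hinge protein between cytochrome c1 and cytochrome c, had levels of 8.20 (Ruvbl2 siRNA) and 8.12 (control siRNA) with LPS, against 8.46 and 8.38 in DMSO. Uqcrb, a small subunit near the ubiquinone sites, had 6.38 and 6.32 with LPS, against 6.28 and 6.12 in DMSO. These were the lowest and the highest that kept 1 direction with both siRNAs, at -0.26 and -0.27 for Uqcrh and 0.10 and 0.19 for Uqcrb.

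Uqcrq, a small subunit that binds cytochrome b, differed in sign between the siRNAs on this scale. It had 8.18 with Ruvbl2 siRNA and LPS against 8.42 with Ruvbl2 siRNA and DMSO, and 8.41 with control siRNA and LPS against 8.08 with control siRNA and DMSO. The LPS difference was -0.24 with Ruvbl2 siRNA and 0.33 with control siRNA, and the difference between them, -0.57, was the furthest from 0 of the 42 genes on this scale. With spike-in scaling both LPS differences were above 0, at 0.12 with Ruvbl2 siRNA and 0.40 with control siRNA. The difference between them was then -0.27 for Uqcrq, and many of the 42 genes lay further from 0. Among those were Ndufa10 (0.49), Ndufa8 (0.43), Uqcrc2 (0.39), Ndufs3 (0.37) and Ndufv2 (0.30). Cyc1, which carries the haem of cytochrome c1, had 6.38 and 6.20 with LPS against 6.33 and 6.21 in DMSO. Uqcrfs1, the Rieske iron-sulfur protein, had 5.11 and 5.14 with LPS against 5.11 and 5.26 in DMSO. Neither gene kept its treatments apart. The core protein Uqcrc1 had 6.25 and 6.26 with LPS against 6.37 and 6.13 in DMSO, and its partner Uqcrc2 had 5.65 and 5.73 with LPS against 5.62 and 5.79 in DMSO. Of these 4 genes, Uqcrc1 alone was beyond technical error in an LPS comparison, by a narrow margin with control siRNA.

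Cycs encodes somatic cytochrome c, which carries electrons from complex III to complex IV and triggers apoptosis when released. Its level was 7.18 (Ruvbl2 siRNA) and 7.17 (control siRNA) with LPS, against 7.05 and 6.90 in DMSO. Both LPS arrays were thus above both DMSO arrays, by 0.13 and 0.27. Its dimmer second probe gave 0.14 with Ruvbl2 siRNA but -0.22 with control siRNA, so the direction with control siRNA depends on the probe.

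Complex IV was the most uniform on the 75th percentile scale. All 8 of its measured genes were below 0 with each siRNA, with a median of -0.30 with Ruvbl2 siRNA and -0.14 with control siRNA, and 6 of the 8 had both LPS levels below both DMSO levels. With spike-in scaling the medians were 0.07 and -0.06 in that order. There 2 of the 8 genes were below 0 with Ruvbl2 siRNA, so at most 2 could have both LPS levels below both DMSO levels. Cox8a, the ubiquitous isoform of a small subunit, had levels of 8.20 (Ruvbl2 siRNA) and 8.15 (control siRNA) with LPS, against 8.61 and 8.46 in DMSO. Its LPS difference was -0.42 with Ruvbl2 siRNA and -0.31 with control siRNA, where its level was 80.7% of that in DMSO. Cox6c had 6.45 and 6.42 with LPS, against 6.86 and 6.62 in DMSO. Neither gene overlapped between treatments.

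The ubiquitous isoform Cox4i1 had 7.90 (Ruvbl2 siRNA) and 7.75 (control siRNA) with LPS, against 8.23 and 7.88 in DMSO. Cox5a, a subunit on the matrix side, had 8.18 and 8.19 with LPS, against 8.51 and 8.30 in DMSO. Cox4i1 overlapped between treatments, since its Ruvbl2 siRNA LPS level lay just above its control siRNA DMSO level, and Cox5a did not. The single-span subunit Cox7b had 5.80 and 5.78 with LPS, against 6.07 and 6.01 in DMSO. Cox7a2, the isoform made in most tissues, had 7.12 and 7.01 with LPS, against 7.31 and 7.14 in DMSO. Both had lower levels on each LPS array than on either DMSO array. Cox7c, also a single-span subunit, had 5.98 and 5.95 with LPS, against 6.07 and 6.05 in DMSO. Cox6a1, the isoform of subunit 6a made in most tissues, had 9.10 and 9.06 with LPS, against 9.27 and 9.06 in DMSO. The LPS difference of Cox7c was within technical error with both siRNAs, and those of Cox5a and Cox6a1 were with control siRNA.

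**Figure D2:**
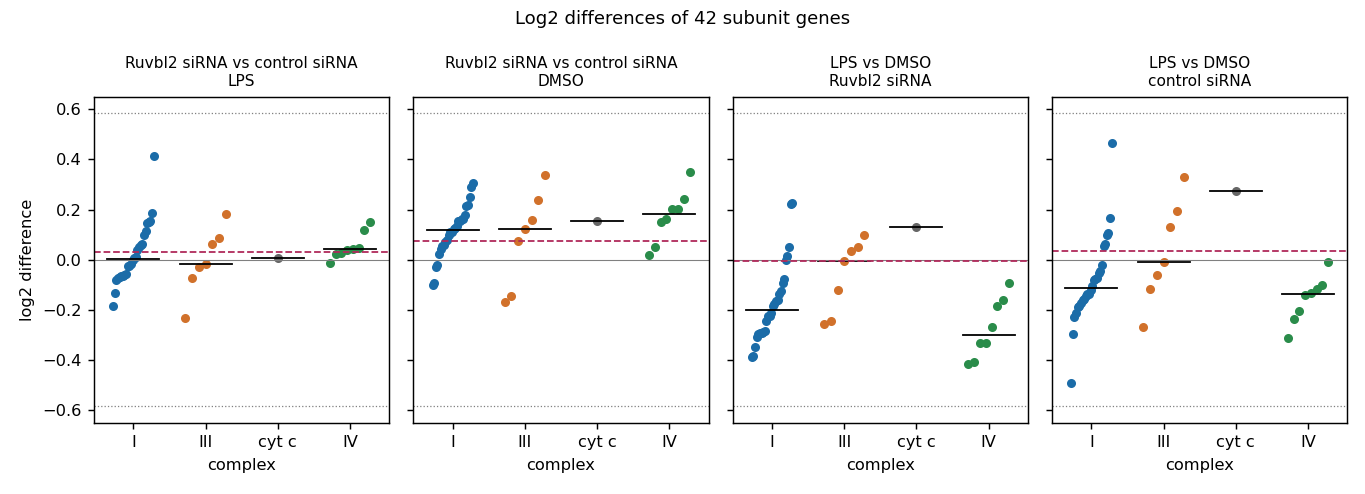
Log2 difference of each of the 42 genes (vertical axis) in the 4 comparisons, by complex, with 1 point per gene and a black bar at the median. The dashed line is the median of all genes of mean level 3 or more and the dotted lines mark 1.5-fold. No point reaches the dotted lines, complex IV lies wholly below 0 in both LPS panels, and most points lie above 0 for the siRNA in DMSO, all on the 75th percentile scale; with spike-in scaling the signs for LPS with Ruvbl2 siRNA and the siRNA in DMSO turn for most genes.

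Ruvbl2 siRNA in LPS-treated cells left the subunit genes near their control siRNA levels. The median difference was 0.02, with 24 of 42 genes above 0, against 0.00 and 50.8% over all genes compared and 0.03 and 56.9% over genes of mean level 3 or more. Beyond technical error 7 were higher and 3 lower, where 31.8% and 20.1% of genes of mean level 3 or more were. Ndufa2, an accessory complex I subunit with a thioredoxin fold, stood furthest from 0, at 7.55 with Ruvbl2 siRNA and 7.14 with control siRNA. That is 133% of the control level, and its DMSO levels, 7.50 and 7.21 in the same order, ran the same way. Cyc1 (0.18), Ndufb7 (0.19) and Cox4i1 (0.15) were also higher with Ruvbl2 siRNA. Uqcrq (-0.23), Ndufs4 (-0.19) and Ndufs1 (-0.13) were the 3 lower beyond technical error.

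In DMSO, most subunit genes were slightly higher with Ruvbl2 siRNA, and this depended on how the arrays were scaled. The median difference was 0.13, with 36 of 42 genes above 0, against 0.04 and 58.4% over all genes and 0.07 and 67.3% over genes of mean level 3 or more. Beyond technical error 21 were higher and 2 lower, where 36.1% and 11.4% of genes of mean level 3 or more were. The medians were 0.12 for complex I, 0.12 for complex III and 0.18 for complex IV, where all 8 genes were above 0. Cox4i1 had a level of 8.23 with Ruvbl2 siRNA and 7.88 with control siRNA, and Uqcrq had 8.42 and 8.08 in that order. Ndufa5, an accessory subunit of the matrix arm, had 6.88 with Ruvbl2 siRNA and 6.58 with control siRNA in DMSO, and 6.90 and 6.74 under LPS. The 2 genes lower beyond technical error were Uqcrc2, at 5.62 with Ruvbl2 siRNA and 5.79 with control siRNA, and Uqcrfs1, at 5.11 and 5.26 in that order. In both treatments together, 8 genes had both Ruvbl2 siRNA levels above both control siRNA levels, against 15.2% of all genes and 20.7% of those of mean level 3 or more, and 2 had both below, against 10.3% and 6.59%.

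On the 75th percentile scale many of the subunit genes peaked on 1 array. Of the 42 genes, 30 had their highest level on the Ruvbl2 siRNA DMSO array, 6 on that of Ruvbl2 siRNA with LPS, 5 on that of control siRNA with DMSO and 1 on that of control siRNA with LPS. The Ruvbl2 siRNA DMSO array was the highest for 33.3% of all genes well above background on the 4 arrays and 36.3% of those of mean level 3 or more. That Ruvbl2 siRNA DMSO array enters both the siRNA comparison in DMSO and the LPS comparison with Ruvbl2 siRNA. Its 75th percentile of the signal, 331, was the lowest, against 407 on the Ruvbl2 siRNA LPS, 395 on the control siRNA LPS and 456 on the control siRNA DMSO array. The (+)E1A spike-ins, RNA added in known amount, had their highest median level on it: 3.95, against 3.58 (Ruvbl2 siRNA LPS), 3.57 (control siRNA LPS) and 3.64 (control siRNA DMSO). With spike-in scaling 3 of 42 genes were above 0 for the siRNA in DMSO (Ndufa5, Uqcrq and Cox4i1). The 4 below 0 for LPS with Ruvbl2 siRNA were other genes (Ndufs8, Ndufa6, Cox6c and Cox8a). On that scale, then, no gene of the 42 peaked on the Ruvbl2 siRNA DMSO array. The part that the array differences in percentile and spike-in level have in the results was not tested.

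Scaled to the spike-ins, the median over all genes was -0.26 in place of 0.04 for the siRNA in DMSO, 0.33 in place of -0.03 for LPS with Ruvbl2 siRNA and 0.07 in place of 0.00 for LPS with control siRNA. The median of the subunit genes moved with it, to -0.17, 0.18 and -0.04, with 3, 38 and 16 of 42 above 0. For the siRNA under LPS it was 0.01 with 24 of 42 above 0. The signs in DMSO and of LPS with Ruvbl2 siRNA therefore depend on the scaling, for complexes I and IV too: LPS with Ruvbl2 siRNA had medians of 0.17 and 0.07 there, and 2 genes, Ndufa8 and Ndufs4, both at 0.59, passed 1.5-fold higher. Relative to genes of mean level 3 or more, which removes the scaling, the subunit genes' median was -0.18 for LPS with Ruvbl2 siRNA, -0.14 for LPS with control siRNA, 0.06 for the siRNA in DMSO and -0.02 for the siRNA under LPS. Scaling whole arrays or filtering dim probes cannot move this measure. Under the other normalizations and the mean over a gene's probes its LPS medians lay between -0.20 and -0.13 with Ruvbl2 siRNA. With control siRNA they lay between -0.15 and -0.13.

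The LPS difference was lower with Ruvbl2 siRNA than with control siRNA for 30 of 42 genes. The same held for 6856 of all 12471 genes compared and for 2372 of the 4141 of mean level 3 or more. The median of the difference between the LPS effects was -0.10, against -0.03 over all genes. This value used all 4 arrays and was not stable. It was -0.01 after normexp correction with quantile normalization and 0.20 with spike-in scaling. With spike-in scaling 40 of 42 genes were above 0, against 82.5% of all genes and 89.6% of those of mean level 3 or more. Complex III had 0.01, complex I -0.09 and complex IV -0.13.

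**Figure D3:**
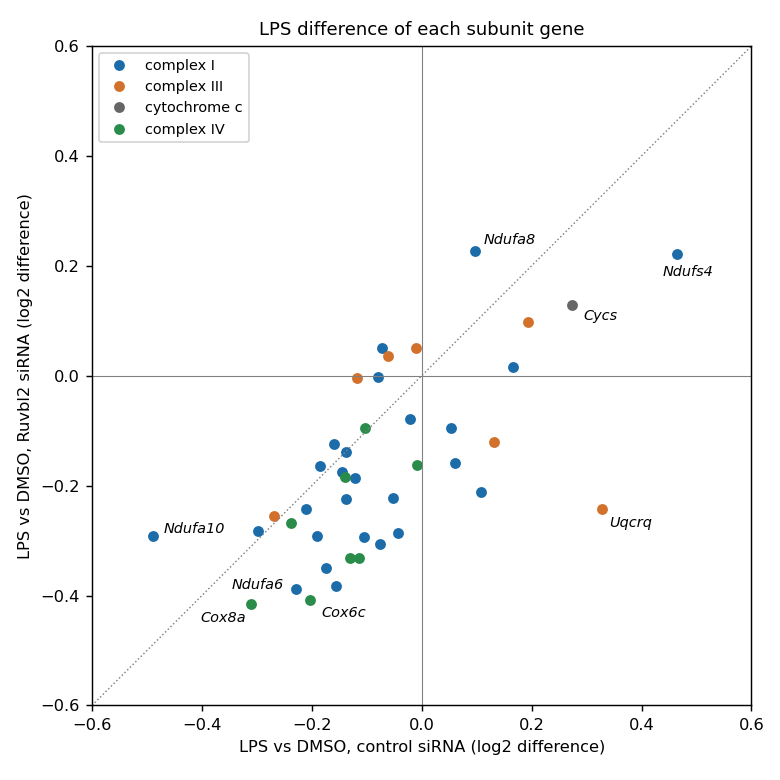
LPS against DMSO log2 difference with control siRNA (horizontal) and with Ruvbl2 siRNA (vertical) for each of the 42 genes, coloured by complex, with equal values on the dotted diagonal. Most complex I and all complex IV points lie lower left, Ndufs4, Ndufa8 and Cycs lie upper right, and Uqcrq is higher with control siRNA and lower with Ruvbl2 siRNA. Values are on the 75th percentile scale, and spike-in scaling moves most points above 0 on the vertical axis.

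Genes that work with the respiratory chain were described by the same values. The 15 other nuclear subunits of complexes I, III and IV outside the 43 had LPS medians of -0.15 with Ruvbl2 siRNA, with 13 of 15 below 0, and -0.07 with control siRNA, with 11 of 15 below 0. The 4 subunits of complex II, succinate dehydrogenase, had -0.14 and -0.07, with 3 of 4 below 0 in each. The 15 measured ATP synthase genes had -0.16 and -0.16, with 14 and 12 of 15 below 0, and Atp5a1, the catalytic-head alpha subunit, had -0.40 and -0.44. Neither these subunit groups nor the 42 held a gene past 1.5-fold. These directions with Ruvbl2 siRNA also turn with spike-in scaling. There 15 of 15 other subunits, 4 of 4 complex II genes and 14 of 15 ATP synthase genes were above 0. So were 83.3% of all genes and 90.1% of those of mean level 3 or more.

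Assembly factors lay on the other side. These 38 proteins help to build the complexes without staying in them, and their LPS medians were 0.08 with Ruvbl2 siRNA and 0.15 with control siRNA, with 23 and 28 of 38 above 0. Cox17, a copper chaperone for complex IV, had levels of 7.37 (Ruvbl2 siRNA) and 7.51 (control siRNA) with LPS, against 6.63 and 6.46 in DMSO. Coa5, another complex IV assembly factor, had 3.90 and 4.21 with LPS, against 2.99 and 3.05 in DMSO. With control siRNA these were 2.06-fold and 2.24-fold higher, whereas the 8 complex IV subunit genes were all below 0 (7 of 8 with spike-in scaling). They were the 2 of 38 past 2-fold higher, where 4.74% of all genes were. Cox20, an assembly factor that stabilises a mitochondrially encoded complex IV subunit, was lower with LPS, at -0.36 with Ruvbl2 siRNA and -0.88 with control siRNA. With spike-in scaling its difference with Ruvbl2 siRNA was not below 0.

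The regulators had LPS medians of -0.07 with Ruvbl2 siRNA and -0.13 with control siRNA over 11 genes. Nrf1 had levels of 1.69 (Ruvbl2 siRNA) and 1.40 (control siRNA) with LPS, against 1.96 and 1.78 in DMSO. Before spike-in scaling, the coactivator genes Ppargc1b (-0.30 and -0.48) and Pprc1 (-0.27 and -0.47) were lower with LPS with both siRNAs. Yy1 was higher, at 0.22 and 0.25. Scaled to the spike-ins, the regulators' LPS median was 0.30 with Ruvbl2 siRNA, with 10 of 11 above 0. The gene below 0 was Polrmt, so Nrf1, Ppargc1b and Pprc1 were then above 0 with Ruvbl2 siRNA. For control siRNA that scaling gave a median of -0.06, with 6 of 11 below 0. Of the 13 mitochondrially encoded subunits, 0 had a named probe, so the other genome's share of the complexes was not analysed here.

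Among tissue isoforms of complex IV, 4 of 8 could be compared. Cox6a2, the heart and muscle isoform of subunit 6a, had levels of -1.65 (Ruvbl2 siRNA) and -0.25 (control siRNA) with LPS, against -1.46 and -1.99 in DMSO. It was 3.35-fold higher with LPS and control siRNA and 2.65-fold lower with Ruvbl2 siRNA than with control siRNA under LPS, on dim spots where technical error is larger. Its ubiquitous counterpart Cox6a1 differed by between -0.16 and 0.20 in the 4 comparisons.

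Mitochondrial ribosomal protein genes (77) had LPS medians of 0.06 and 0.09, and the 14 citric acid cycle genes -0.05 and -0.09, with Ruvbl2 siRNA and control siRNA in that order. With spike-in scaling these were 0.43 and 0.16, and 0.32 and -0.02. The 18 measured glycolytic genes had LPS medians of -0.09 with Ruvbl2 siRNA, with 11 of 18 below 0, and 0.07 with control siRNA, with 12 of 18 above 0. Scaled to the spike-ins, these glycolytic medians were 0.28 with Ruvbl2 siRNA and 0.14 with control siRNA, with 15 of 18 above 0 in each. The sign with Ruvbl2 siRNA thus depends on the scaling. Before spike-in scaling the lowest glycolytic median was that of the siRNA under LPS. After it the lowest was that of the siRNA in DMSO, at -0.41. With Ruvbl2 siRNA under LPS 17 of 18 were below 0, with a median of -0.24, while the 42 subunit genes had a median of 0.02. Eno2, an enolase, was 3.41-fold lower there and Hk3, a hexokinase, 1.58-fold lower. These are medians of single-array differences, and the contrast between the lists was not tested.

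**Figure D4:**
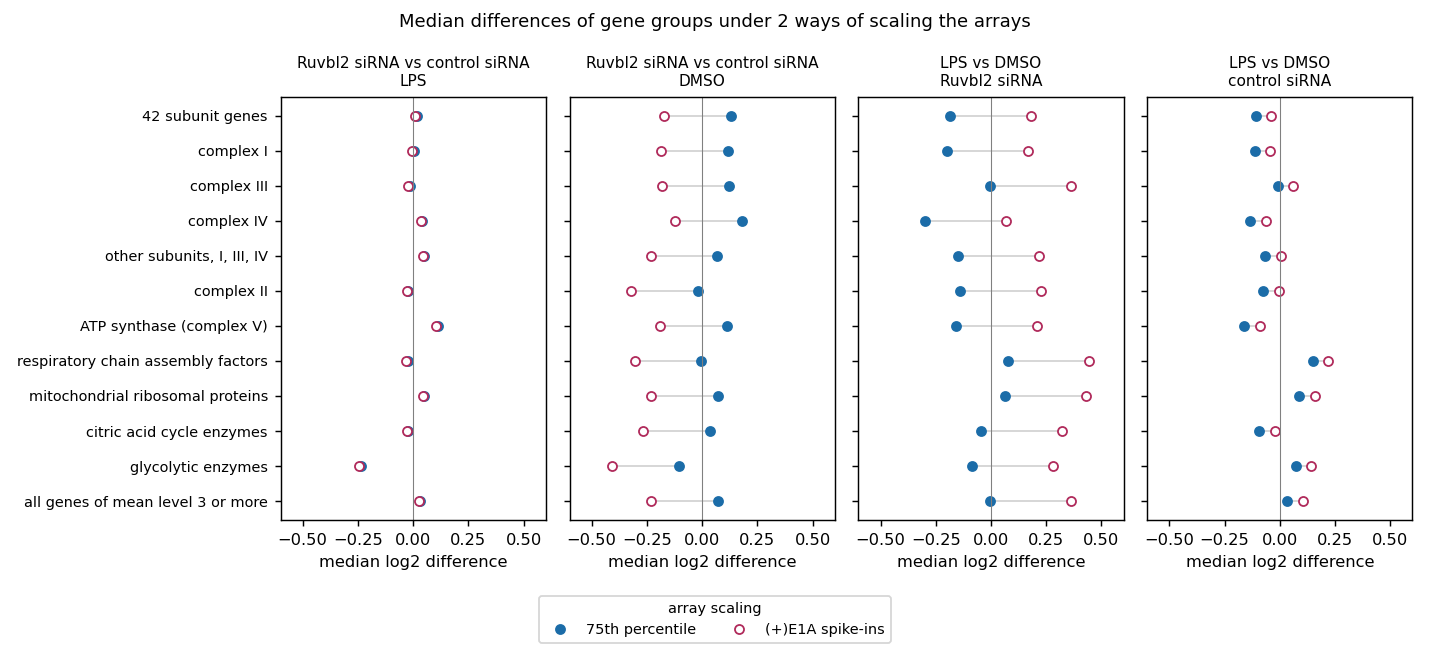
Median log2 difference of each gene group (horizontal axis) in the 4 comparisons, with filled points for 75th percentile scaling and open points for spike-in scaling. Spike-in scaling moves all groups together, and within the LPS panels the subunit groups of complexes I and IV and ATP synthase lie left of the assembly factors and mitochondrial ribosomal genes under either scaling.

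The 5 genes outside all lists whose pattern over the 4 arrays was most like the median pattern of the subunit genes were Tomm6, Med12, Mfap3, Plpp7 and Oprm1, at Euclidean distances between 0.018 and 0.024 among 12216 genes. The likeness rests on 4 arrays only.

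For 8 genes (Ndufv1, Ndufa3, Ndufa5, Ndufa10, Ndufb5, Uqcrb, Cycs and Cox7c) a second probe was also well above background on all 4 arrays. The difference given by the 2 probes of a gene differed by a median of 0.10 and by at most 0.49 (Cycs, LPS with control siRNA), which is as large as the largest difference between arrays of any of the 42 genes. The probes had the same sign for 7 of 8 genes for LPS with Ruvbl2 siRNA, 6 of 8 for LPS with control siRNA, 5 of 8 for the siRNA in DMSO and 4 of 8 for the siRNA under LPS.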

How the data were processed

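The deposited scanner files hold 1-colour intensity data for 62976 spots on each of 4 arrays. The processed signal was background-subtracted on a linear scale by Agilent Feature Extraction 11.5.1.1 per the file headers (11.0 per the submitters' processing notes), with no scaling across arrays. A deposited table of the series, also intensity, equalled it at every spot, and 0 spots were saturated. Control spots and outlier spots were left out, repeated spots averaged, and the log2 signal taken relative to each array's 75th percentile over 56605 probes. Through RefSeq accessions, 32994 probes were named (GRCm38.p6 gene table). The brightest probe stood for a gene, compared where well above background on both arrays. With 1 array per group there was no test, and precision is limited by that number of arrays. Alternatives used limma 3.58.1 in R 4.3.3; the rest used Python 3.11.15 and pandas 2.3.3, and the code was tested on simulated data.

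Named genes were the 2 highest and 2 lowest members per complex and comparison, any member past 1.5-fold, other listed genes past 2-fold or at a list's extremes, and the 5 genes nearest the members' median pattern. The text names part of these, and Nrf1 and Ndufb9 were named after their values were seen. The members, lists and rules were chosen with earlier results of these data known. The files hold no mean signal column and no gene name column, so normexp used the median signal and naming by file symbol was not run. One further marker list is not reported here.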

Additional observations from a re-analysis of the deposited data

Results flagged for a closer look

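Uqcrq, a small complex III subunit, was singled out because the same contrast had opposite signs in the 2 backgrounds, each beyond technical error. Its LPS against DMSO difference was -0.24 with Ruvbl2 siRNA and 0.33 with control siRNA. The same 4 levels, read the other way, gave a Ruvbl2 siRNA against control siRNA difference of -0.23 under LPS and 0.34 in DMSO. Both sign changes hold on the 75th percentile scale. With spike-in scaling the LPS differences were 0.12 with Ruvbl2 siRNA and 0.40 with control siRNA, and the siRNA differences -0.24 under LPS and 0.04 in DMSO, the last within technical error. Whether these differ was not tested, since each group was 1 array.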

How the results depend on the processing

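Medians of the 42 genes on the log2 scale moved by more than 1 technical SD in these cases, taken as 0.0639 for a difference of 2 arrays and 0.0904 for the difference between the LPS effects, which uses 4. With spike-in scaling they were -0.17 for the siRNA in DMSO (0.13 in the report), 0.18 for LPS with Ruvbl2 siRNA (-0.19), -0.040 for LPS with control siRNA (-0.11) and 0.20 for the difference between the LPS effects (-0.10), and 2 genes passed 1.5-fold higher for LPS with Ruvbl2 siRNA (0). The siRNA median in DMSO was 0.068 with cyclic loess. Centring on genes of mean level 3 or more, chosen after seeing the data, gave 0.055 for the siRNA in DMSO and -0.18 for LPS with control siRNA. Normexp correction on the median signal with quantile normalization gave -0.0073 for the difference between the LPS effects, and quantile normalization alone -0.029. The median for the siRNA under LPS stayed between -0.03 and 0.03. The counts of members past 2-fold were 0 under every alternative run. Over all genes, counts past 2-fold ran from 67 to 1151 higher for LPS with Ruvbl2 siRNA (403 in the report's setting), from 99 to 1336 for LPS with control siRNA (603), from 3 to 645 for the siRNA under LPS (65) and from 1 to 766 for the siRNA in DMSO (54). Lower counts ran from 31 to 978 (209), 35 to 794 (262), 6 to 765 (157) and 7 to 575 (56) in the same order. The lowest counts come from testing fewer genes, those of mean level 3 or more. Counts past 1.5-fold in the same order ran from 192 to 3082 (977), 280 to 2582 (1299), 50 to 1444 (372) and 21 to 1633 (291) higher and from 143 to 2263 (911), 185 to 2145 (994), 42 to 1777 (588) and 28 to 1320 (263) lower. No paired analysis was possible because each group has 1 array and the labels carry no replicate numbers, and no array could be left out. Naming probes by the scanner file's gene symbol was not run, since that column is not among those used here. Differences under 0.13 are within spot error, and the spread between cultures is unknown.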
